A study of Rattus norvegicus with 2 samples.

Results

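The genes described here are 8 candidates from the genetics of the spontaneously hypertensive rat (SHR), a strain in which high blood pressure develops with age. They are Cd36, Ephx2, Endog, Ogn, Camk2n1, Zbtb16, Wars2 and Stim1, chosen by symbol because earlier rat genetics named them as variant or differently expressed in SHR or in strains derived from it. Of the 8, 7 were found among the 25395 genes with a unique name, and Cd36 was not analysed here. Single-cell RNA sequencing (scRNAseq) in droplets was made on dissociated stellate ganglia, whose sympathetic neurons supply the heart. There was 1 library of male normotensive Wistar rats and 1 library of male prehypertensive SHRs, both at 5 to 6 weeks of age. Wistar is an outbred stock and SHR an inbred strain. The 2 differ across the genome, and with 1 library of each no result can be assigned to a named variant or told apart from a difference between the 2 preparations.

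The candidates belong to different processes. Stim1 encodes the sensor of calcium in the endoplasmic reticulum, which opens Orai channels of the plasma membrane when the store is empty. Camk2n1 encodes a small protein that inhibits CaMKII, the calcium and calmodulin dependent kinase. Endog and Wars2 encode mitochondrial proteins, a nuclease and the tryptophanyl-tRNA synthetase that loads tRNA for translation within the organelle. Ephx2 encodes soluble epoxide hydrolase, which converts vasoactive epoxides of arachidonic acid to diols. Ogn encodes osteoglycin, a small leucine-rich proteoglycan of connective tissue, Zbtb16 a transcriptional repressor of the BTB zinc finger family, and Cd36 a fatty acid transporter.

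Each level is the mean over the sympathetic neurons of a library, after the counts of every neuron had been scaled to 10000, and is called the mean per 10000. The chemistry counts the 3' end of a transcript, so levels were not divided by gene length. The number of neurons was recovered from the deposited values, since genes detected by 1 count in the same neuron share an identical mean. With 315 neurons assumed in Wistar, 36 of 37 shared means gave a depth within 0.1 of a whole number of counts, and with 110 neurons in SHR 50 of 52 did. No other number up to 5000 gave more than 56.3% in Wistar or 51.1% in SHR, apart from numbers that divide 315 or 110. Depths recovered for 199 Wistar and 109 SHR neurons had medians of 97221 and 102362 counts. Counting intervals below come from approximate counts, each mean divided by the average worth of 1 count in its library. A count weighs more in a shallow neuron than in a deep one, which the intervals leave out. They leave out variation between neurons, animals and preparations, so they are narrower than the error of a strain difference, for which there is no test. Sympathetic identity was clear in both libraries. The 11 sympathetic neuron markers listed summed to 139.0 per 10000 in Wistar and 146.4 in SHR, with 7 lower and 4 higher in SHR and none at 0. Prph, peripherin, made up the largest part, at 58.0 and 67.6 per 10000, followed by Uchl1, at 25.0 and 30.8. Both were higher in SHR, so the sums hide lower levels of other markers. Dbh, for noradrenaline synthesis, had 10.2 and 6.36, Ddc 7.05 and 3.44, and Slc18a2 5.36 and 3.63. Th (10.2 and 10.1) and Slc6a2 (15.9 and 15.2) differed little.

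**Figure D1:**
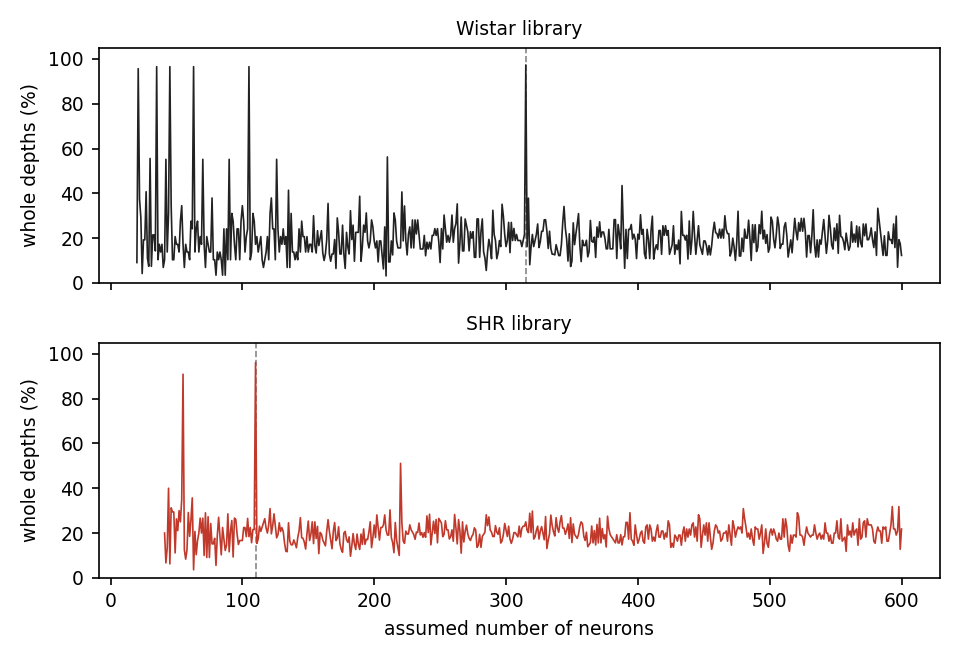
Share of shared means that gave a whole depth (vertical axis, percent) for each assumed number of neurons up to 600 (horizontal axis), in the Wistar and the SHR library. The dashed lines mark 315 and 110 neurons, with 97.3% and 96.2%, and the other peaks of like height stand at divisors of these numbers.

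The candidates were transcripts of low abundance in both strains, and the most abundant ones, Stim1 and Endog, differed little between them. Stim1, Endog and Ephx2 passed the minimum used here, an average of 0.1 per 10000 over both libraries. Wars2, Camk2n1 and Ogn were above 0 but below it, and Zbtb16 was listed at 0 in both. Of the 6 genes above 0, 4 were lower and 2 higher in SHR. Past the minimum, Ephx2 was lower and Stim1 and Endog were higher, while 65.6% of all 7621 genes past it were lower. The share of genes lower by any amount was not computed below the minimum. Among the 3 genes past the minimum, Ephx2 was lower in SHR by more than 1.5-fold and none was higher by that size. Ephx2 passed through its Wistar level of 0.161 per 10000, since its SHR level of 0.0868 was itself under 0.1. Of all genes past the minimum, 26.5% were lower and 5.22% were higher in SHR by at least 1.5-fold, so 1 of 3 is near the background. When ratios were divided by their median over these genes, 0.863, the calls over all genes went from 2021 lower and 398 higher to 1320 lower and 1005 higher. Relative to that median the log2 ratios of SHR over Wistar were 0.28 for Stim1, 0.41 for Endog and -0.68 for Ephx2.

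**Figure D2:**
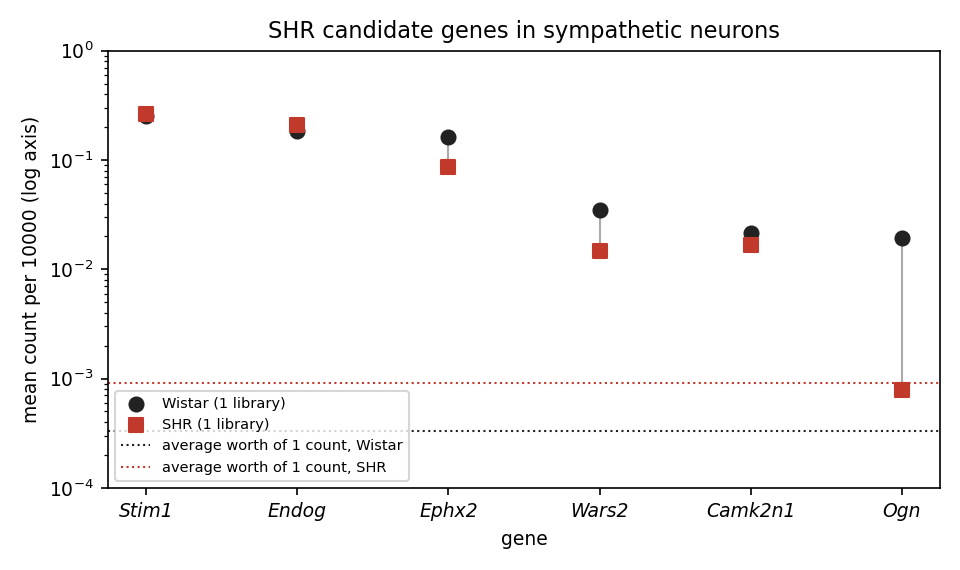
Mean per 10000 (vertical log axis) of the 6 candidate genes above 0 in the Wistar library (circles) and the SHR library (squares), with no error bars because each point is 1 library. Dotted lines mark the average worth of a single count in each library. Stim1 and Endog overlap closely, whereas the SHR point of Ogn lies below the worth of an average count.

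Stim1 was the most abundant candidate and was almost equal between the strains. It averaged 0.253 per 10000 in Wistar against 0.266 in SHR, about 762 and 290 counts. The level in Wistar divided by that in SHR was 0.952 by these counts, with a 95% counting interval of 0.831 to 1.09. On the scale of log2(1 + mean) the difference, SHR minus Wistar, was 0.015, against a median of -0.05 over the genes past the minimum. The genes nearest to Stim1 in their pair of levels, over the 2 libraries, were Lims1 (0.253 and 0.267 per 10000) and Gstk1 (0.252 and 0.264).

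Other genes of store-operated calcium entry showed a mixed picture around this equal level of the sensor. Stim2, the other sensor, averaged 0.260 per 10000 in Wistar against 0.261 in SHR, so both sensors were present at like levels in both libraries. Of the channel subunits, Orai1 was 1.37-fold higher in SHR, from 0.328 to 0.449 per 10000, which was the largest upward difference of log2(1 + mean) among the listed genes past the minimum. Orai2 went the other way, at 0.384 per 10000 in Wistar against 0.269 in SHR, and Orai3 had 0.0920 and 0.0560. Saraf, which encodes an inactivator of this entry pathway, was the most abundant gene of the list, with 5.55 per 10000 in Wistar and 4.63 in SHR. Of the 9 listed genes past the minimum, 5 were lower and 4 higher in SHR, beside 65.6% lower among all genes past it. The median log2 difference was -0.06. In this list 1 gene was lower and 0 were higher by 1.5-fold, beside 26.5% and 5.22% of all genes.

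**Figure D3:**
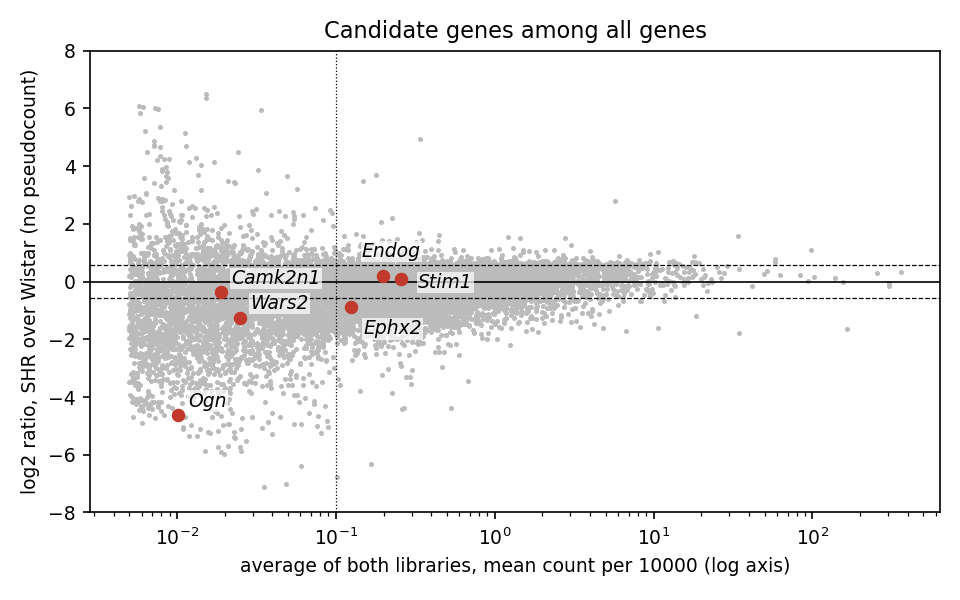
Log2 ratio of SHR over Wistar without pseudocount (vertical axis) against the average level of both libraries (horizontal log axis), for genes above 0 in both. Dashed lines mark 1.5-fold and the dotted line the minimum of 0.1 per 10000. Stim1, Endog and Ephx2 lie within the cloud of grey genes of their level, and Ogn lies at -4.62 at the left, where the spread of ratios is wide.

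Camk2n1, the CaMKII inhibitor, had few counts in both libraries, while most subunit genes of its target kinase had many more. It averaged 0.0214 per 10000 in Wistar against 0.0165 in SHR, which is about 65 counts over 315 neurons and 18 counts over 110 neurons. The ratio of Wistar over SHR was 1.31 by counts, with a 95% counting interval of 0.767 to 2.34, so a difference was not detectable at this depth. The paralog Camk2n2 had 0.000273 per 10000 in Wistar and was listed at 0 in SHR.

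The 3 most abundant kinase subunit genes were each lower in SHR by more than 1.5-fold. Camk2b, the most abundant, went from 2.37 per 10000 in Wistar to 1.33 in SHR, a 1.78-fold lower level. Camk2g was 1.73-fold lower, at 1.87 and 1.08 per 10000, and Camk2d was 1.94-fold lower, at 1.41 and 0.726. Camk2a, the subunit that predominates in forebrain, was near the level of the inhibitor, at 0.0306 and 0.0103 per 10000. Of 9 genes of the CaM kinase list past the minimum, 8 were lower and 1, Camk1, was higher, with 1.38 per 10000 in SHR against 1.14. The share of all genes past the minimum that were lower was 65.6%. In the list 4 of 9 genes were lower by 1.5-fold, beside 26.5% of all genes, and the median log2 difference was -0.15.

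Endog, the mitochondrial nuclease, was slightly higher in SHR. It averaged 0.184 per 10000 in Wistar against 0.211 in SHR, about 554 and 230 counts. The ratio of Wistar over SHR was 0.873, and its 95% counting interval of 0.747 to 1.02 included equal levels. Of genes past the minimum and above 0 in both libraries, 78.0% had a lower ratio of SHR over Wistar than Endog. Its nearest genes by level in the 2 libraries were Pofut2 (0.184 and 0.211 per 10000) and Irf2bp1 (0.186 and 0.207).

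Exog, the paralog of Endog in the mitochondrial inner membrane, was lower in SHR, with 0.147 per 10000 in Wistar and 0.0937 in SHR. The most abundant gene of the mitochondrial nuclease and DNA upkeep list was Rexo2, an oligoribonuclease, with 2.41 and 2.99 per 10000. Htra2, a mitochondrial protease, had the largest downward log2 difference, from 0.813 to 0.614 per 10000. Of 12 genes past the minimum, 8 were lower and 4 higher in SHR, and 3 were lower by 1.5-fold, beside 65.6% and 26.5% of all genes.

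Wars2 was lower in SHR on few counts. It averaged 0.0351 per 10000 in Wistar against 0.0148 in SHR, about 106 and 16 counts. By counts the ratio of Wistar over SHR was 2.40, with a 95% counting interval of 1.41 to 4.35 for counting error alone. Among all 11632 genes with an average of at least 0.01 per 10000, 34.4% were lower in SHR by at least 1.5-fold and 6.97% were higher. Most of these genes have higher levels than Wars2, and the share with a ratio as low as that of Wars2 was not computed.

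Of 9 mitochondrial aminoacyl-tRNA synthetases and partners past the minimum, 8 were lower and 1 higher in SHR, where 65.6% of all genes were lower. By at least 1.5-fold 5 of the 9 were lower, beside 26.5% of all genes, and their median log2 difference was -0.11. Hars2, for histidine, had the largest downward log2 difference, from 0.395 to 0.213 per 10000. Fars2, for phenylalanine, had 0.427 and 0.253, whereas Gatc, a subunit of the glutamyl-tRNA amidotransferase and the most abundant of the list, had 0.457 and 0.420. The cytosolic enzyme for tryptophan, Wars, was far above Wars2, at 0.496 per 10000 in Wistar and 0.421 in SHR, a 1.18-fold difference. Of 20 cytosolic synthetase genes, 17 were lower and 3 higher in SHR, and 3 were lower by 1.5-fold, beside the same 65.6% and 26.5% of all genes.

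**Figure D4:**
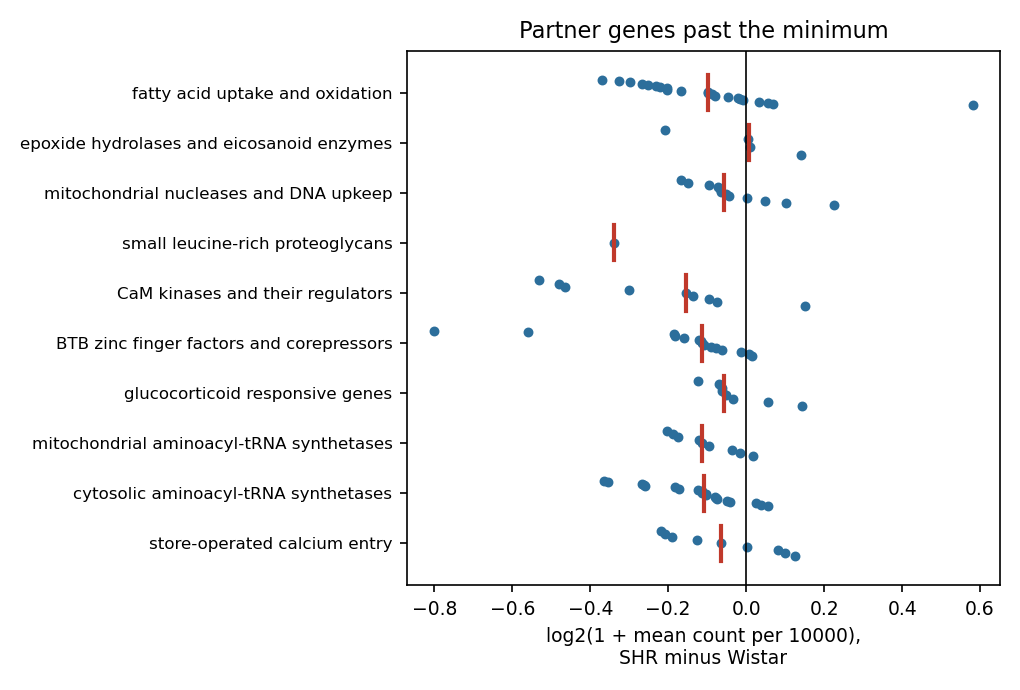
Differences of log2(1 + mean per 10000), SHR minus Wistar (horizontal axis), for the genes of the 10 partner lists that passed the minimum, without the candidates. Each point is a gene and each red bar a list's median. The medians run from -0.34, for the single proteoglycan past the minimum, to 0.01 for the epoxide hydrolase and eicosanoid list.

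Ephx2 was the candidate past the minimum with the largest difference. It averaged 0.161 per 10000 in Wistar against 0.0868 in SHR, a change of -46.1%, from about 485 and 95 counts. The ratio of Wistar over SHR by counts was 1.85, with a 95% counting interval of 1.48 to 2.33. Relative to the median ratio of all genes past the minimum, the log2 ratio of SHR over Wistar went from -0.89 to -0.68. A lower ratio was found in 14.1% of the genes past the minimum. Fam53a (0.162 and 0.0863 per 10000) and Plekha8 (0.164 and 0.0870) had the nearest levels in the 2 libraries.

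Among the other epoxide hydrolases, Ephx1 had the opposite direction. Ephx1, the microsomal enzyme, had 0.0616 per 10000 in Wistar and 0.102 in SHR, and Ephx3 was listed at 0 in both. The epoxygenase gene Cyp2c23 was also listed at 0 in both, as was Cyp2c11. Cyp2j10, about 55 and 11 counts, had 0.0183 and 0.00978 per 10000, and Cyp2j4, about 4 and 5 counts, had 0.00118 and 0.00440. Ephx4 had 0.000361 in Wistar and was listed at 0 in SHR. Of the whole eicosanoid list, 4 genes passed the minimum, of which 1 was lower and 3 higher in SHR. Among all genes past the minimum 65.6% were lower. The most abundant was Ptges3, a cochaperone with prostaglandin E synthase activity, at 3.13 and 3.55 per 10000. Pla2g6, a calcium independent phospholipase, was 1.75-fold lower in SHR, at 0.456 and 0.261.

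Ogn was close to absent from the SHR neurons. It averaged 0.0195 per 10000 in Wistar, about 59 counts, and 0.000793 in SHR. The SHR value is shared by 10 genes and equals 1 count in 1 of the 110 neurons, a cell with 114701 counts. By counts the ratio of Wistar over SHR was 21.4, with a 95% counting interval as wide as 3.69 to 858.7.

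Transcripts of connective tissue were lower in SHR beside Ogn. Of the 7 fibroblast markers, 6 were lower in SHR, and their summed level was 1.84 per 10000 in Wistar and 0.358 in SHR, with none at 0. Among all genes past the minimum 65.6% were lower, a set that leaves out several of these markers. Col3a1 had 0.814 and 0.152 per 10000, Col1a1 0.542 and 0.0644, and Pdgfra 0.0178 and 0.000864. Among the other small leucine-rich proteoglycans Dcn, decorin, passed the minimum, at 0.387 per 10000 in Wistar and 0.0964 in SHR, a 4.01-fold lower level. Below the minimum, Lum, Bgn, Tsku and Aspn were also lower or listed at 0 in SHR. Prelp (1.68-fold), Optc (0.00101 and 0.0161 per 10000), Fmod (0.000553 and 0.00829) and Nyx (0.000487 and 0.000620) were higher. These rest on few counts, about 3 in Wistar and 18 in SHR for Optc and 2 and 9 for Fmod. Nyx had about 1 count in each library and Aspn about 1 in Wistar, so neither gives a direction. Omd, which encodes the related osteomodulin, was listed at 0 in both. Markers of glia (summed level 9.34 and 3.45 per 10000, 8 of 8 lower in SHR), endothelium (0.187 and 0.0561, 5 of 6 lower) and immune cells (1.29 and 0.424, 7 of 8 lower) were also lower, and none of these was at 0 in either library. The same 65.6% of all genes past the minimum stands beside these counts of lower markers. Smooth muscle and pericyte markers summed to 0.117 and 0.0720 per 10000, with 3 lower, 3 higher and Rgs5 at 0 in SHR. Of the 4 adipocyte markers (0.0111 and 0.0105) 1 was lower, 1 higher and 2 were at 0 in both. Of the 2 erythrocyte markers (0.0474 and 0.0237) 1 was lower and 1 at 0 in both. The part of transcripts from other cells in the values of Ogn and of the other candidates was not tested. Fewer cells or fragments of such a type and less RNA from each cannot be told apart in a mean over neurons.

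Zbtb16 was listed at 0 in both libraries, without a count in either set of neurons. Related genes were present. Zbtb20, a BTB zinc finger factor, was the most abundant of its list and had the largest downward difference of log2(1 + mean), from 2.57 per 10000 in Wistar to 1.05 in SHR. By fold it was 2.45-fold lower, while the less abundant Zbtb17 and Zbtb44 were 2.66-fold and 2.60-fold lower. Of 15 genes of the BTB factor and corepressor list past the minimum, 13 were lower and 2 higher in SHR, and 6 were lower by 1.5-fold, where 65.6% of all genes were lower and 26.5% lower by that size. Zbtb16 is known as a target of glucocorticoids in many tissues. Of 14 other glucocorticoid responsive genes analysed, 8 passed the minimum and the rest were above 0 but below it. Fkbp5 had 0.400 and 0.340 per 10000, Tsc22d3 1.68 and 1.79, and Dusp1, the most abundant, 2.38 and 2.73. Of 8 glucocorticoid responsive genes past the minimum, 6 were lower and 2 higher, close to the share over all genes, and Mt1 alone was lower by 1.5-fold, at 0.178 and 0.0807.

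Cd36 was not analysed, but genes of the fatty acid pathway it feeds were expressed. Fabp5, a fatty acid binding protein, was the most abundant and was 1.59-fold higher, with 8.12 per 10000 in SHR against 5.10. Of the 22 genes of this list past the minimum, Fabp5 alone was higher by at least 1.5-fold, whereas 9 were lower by that size. Below the minimum, Lpl was higher in SHR, with 0.0215 per 10000 in Wistar and 0.126 in SHR. Ppara and Pparg, also below it, were higher on few counts, and Fabp4 was lower, at 0.0243 and 0.00272. Acsl6, an acyl-CoA synthetase of neurons, had the largest downward log2 difference, from 0.760 to 0.363 per 10000. Scarb1 and Scarb2, of the same scavenger receptor family as Cd36, were 2.07-fold and 1.68-fold lower in SHR, with 0.338 and 0.195 per 10000 in Wistar. Over all genes past the minimum, 5.22% were higher and 26.5% lower by at least 1.5-fold. Of the 22 listed genes past the minimum, 18 were lower and 4 higher, beside 65.6% lower among all genes. Their median log2 difference was -0.10.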

How the data were processed

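The submitters' notes name 10x Genomics 3' v3 libraries, Cell Ranger 3.0.2, Seurat 3, DESeq2 and the build Rnor_6.0. The authors clustered the cells, selected the sympathetic neurons and deposited a natural log value per gene and strain, the log of 1 plus the mean per 10000. Filters on cells and doublet treatment are not given in the sources used here. The authors' own strain comparison (fold changes and p-values, from MAST) was not used.

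Values were converted back with Python 3.11.15, NumPy 2.4.6 and pandas 2.3.3. Of 25399 lines, 4 that carried a duplicate name were dropped. Differences are of log2(1 + mean), and a gene was called past the fold at a ratio of 1.5 and an average of 0.1 per 10000. The calls were tried on a copy of the Wistar levels over 14256 genes, with 200 genes changed by a fold of 2 and no noise. They recovered 195 of 200, an outcome nearly fixed by that setting, so it does not measure accuracy on real libraries. The neuron number was recovered in 3 of 3 simulated libraries. Their shallow neurons had been given rare genes at a single count, the pattern that the method needs. Counts behind a mean were taken as the mean divided by the average worth of a count, 0.000332 per 10000 in Wistar and 0.000916 in SHR. These come from depths of 199 of 315 Wistar and 109 of 110 SHR neurons. Intervals are Clopper-Pearson (95%) on these approximate counts and are meant for counting error only. Recovered depths ran from 4093 to 227128 counts in Wistar and from 4882 to 232544 in SHR. A mean that comes from few shallow neurons can thus rest on fewer counts than given, and its interval is then too narrow.

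Named genes are the 8 candidates, their paralogs, the 2 genes nearest in level to each candidate past the minimum, and in each partner list the most abundant gene, the largest fall and the largest rise of log2(1 + mean). Zbtb17, Zbtb44, Ephx4, the Cyp genes, the proteoglycans below the minimum, Fars2, Fkbp5 and Tsc22d3 were named after their values were seen. So were Lpl, Ppara, Pparg and Fabp4, and the sympathetic markers other than Prph and Dbh. Candidates, lists and settings were chosen with earlier results of these data known. Reference tables of another rat assembly (GRCr8) were not used, so no coordinates or sequences are given. No test between strains is possible with 1 library each.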

Additional observations from a re-analysis of the deposited data

How the results depend on the processing

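No paired analysis was possible because there is a single library of each strain, and none could be left out. Of the 3 candidates past the minimum, 1 was lower in SHR past the fold, and 0 were with a fold of 2. No candidate reached a minimum of 1 per 10000. With a minimum of 0.01 per 10000, Wars2, Camk2n1 and Ogn enter and 3 of 6 were lower, beside 34.4% of 11632 genes. Ogn enters at an average of 0.0101, through its Wistar level. Over all genes, 2021 lower and 398 higher became 861 and 58 with a fold of 2, 3211 and 1185 with the smallest fold tried, 195 and 172 with a minimum of 1, 4000 and 811 with a minimum of 0.01, and 1320 and 1005 with ratios divided by their median. Setting the median log2 difference to 0 turned 3 small negative differences positive: 0.026 for Ogn, 0.045 for Camk2n1 and 0.024 for Wars2, whose levels are so low that the added 1 hides their ratios. With a minimum of 1 per 10000, the list medians of mitochondrial nucleases and DNA upkeep and of glucocorticoid responsive genes became 0.16 and 0.10, over fewer genes. Taking either the mitochondrial and ribosomal protein genes or the non-neuronal markers out of the total moved 0 of the 6 candidates' log2 differences by 0.05 or more. Both steps only multiply all genes of a library by a common factor. They do not remove transcripts of other cells from the candidates' values, so they say nothing on such transcripts. A pseudocount of 0.01 gave log2 differences of -0.82 for Ephx2, -1.45 for Ogn and -0.86 for Wars2. Wistar depths were recovered for 199 of 315 neurons. These may be the more deeply sequenced ones, which was not tested. With means shared by 2 genes also used, a choice made after the data were examined, the counts behind Ephx2 in Wistar went from 485 to 428 and those behind Ogn from 59 to 52. In SHR the worth of a count went from 0.000916 to 0.00102 per 10000. That setting gave 143 depths for 110 SHR neurons, so some of its depths cannot be those of single neurons.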
